A study of Saccharomyces cerevisiae with 4 samples.

Results

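The genes described here carry sulfate into the yeast cell and reduce it to sulfide. There are 10 of them, SUL1, SUL2, MET3, MET14, MET16, MET22, MET5, MET10, MET1 and MET8, chosen by name as the enzymes and transporters of this route, out of 5330 genes tested. The choice was made with earlier results of these arrays known. Each had 1 probe set on the array, and all 10 were called present on both arrays for which a call could be used, 1 of the SSG1-1 mutant and 1 of the wild type. No member was lost to the filter on undetected probe sets.

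Yeast makes its sulfur amino acids from inorganic sulfate. Permeases bring sulfate in, it is activated with ATP in consecutive steps, and the activated form is reduced first to sulfite and then to sulfide, which is joined to a carbon chain to give homocysteine. The genes of the route are under the transcriptional activator Met4, which acts with Cbf1, Met28, Met31 and Met32 and is held back by the ubiquitin ligase subunit Met30 when sulfur compounds are plentiful.

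Total RNA was hybridized to 1-colour Affymetrix arrays, 2 of the long-lived SSG1-1 mutant and 2 of its wild type, W303-1A, a haploid laboratory strain of Saccharomyces cerevisiae, with the arrays of each strain numbered 1 and 2. Both strains had been kept at 25 °C in rich YPD medium. After a first culture in SDC at pH 6.0 they were put into the same medium again, and RNA was taken 12 h later in early-log phase, at 2000000 cells per ml. The labels state neither which gene or change SSG1-1 stands for nor that replicate arrays are separate cultures, so errors and p-values cover array-to-array spread alone, and this may be technical. All 7 markers of a cells and all 5 markers of alpha cells were called present on both usable arrays, so the calls do not tell the mating types apart. Normalized signals of the a-cell markers ran from 341 (ASG7, mutant array 1) to 13873 (STE2, wild-type array 2). Those of the alpha-cell markers ran from 17.9 (MF(ALPHA)1, mutant array 1) to 2185 (AFB1, wild-type array 2). The mating type was not tested.

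The 2% trimmed mean of the deposited signal ranged between 1034 and 1298 over the 4 arrays, so signals were quantile normalized. Signal is in arbitrary units and cannot be compared between probe sets, and the number of arrays limits the precision. Arrays with the same number deviated together from their strain's mean (correlation 0.634 across 5376 probe sets, which are not independent). Each strain difference is therefore given also within array number 1 and within array number 2, and the difference between the numbers is given as a comparison of its own. The fit between strains has no term for the number, so its errors and p-values also hold the difference between the numbers. In the same way, errors and p-values between numbers also hold the strain difference. What a number marks is not given in the labels.

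The first comparison asked whether the sulfate genes were expressed at another level in the mutant. 8 of the 10 genes were higher in the mutant within both array numbers, as were 29.9% of all probe sets, MET8 was lower within both, and MET22 differed in sign between the numbers (with median centring it was higher within both). The median log2 difference of the 10, mutant minus wild type, was 0.86, against -0.02 over all 5376 tested probe sets, and 1.04 and 0.68 within numbers 1 and 2. No member passed limma's test across all probe sets (adjusted p between 0.944 and 0.998), in which 0.0186% of probe sets passed in either direction. At an unadjusted p under 0.05 the same test gave 3 members as higher, MET3, MET5 and MET10, and 0 as lower, where 2.72% of all probe sets were higher and 1.8% lower at that level. A limma fit with the array number as a block called 8 members higher and 828 probe sets in all. It took each gene's variance from the trend alone, so the gene's own spread did not enter. The lower mutant array exceeded the higher wild-type array for 4 members, MET3, MET14, MET5 and MET10, and for 14% of all probe sets. The strains stood apart with the mutant below for 0 members and for 18% of all probe sets. Which members stood apart depended on the scaling: in the values as deposited they were MET3, MET5, MET10 and MET1, with MET8 apart on the lower side, against 3.4% of all probe sets above and 22.3% below. With median centring they were also MET3, MET5, MET10 and MET1 (13.3% of all probe sets above). Without 1 array the median was 0.24 (without mutant array 1), 0.47 (without wild-type array 2), 1.20 (without wild-type array 1) or 1.37 (without mutant array 2), and the members apart with the mutant above were 4, 4, 9 and 8, where 29.7%, 29%, 30.7% and 31.4% of all probe sets were, since 1 array then stands for a strain. On the lower side, MET8 stood apart without mutant array 1, and MET22 and MET8 without wild-type array 2, where 32.8% and 32.9% of all probe sets did. Without wild-type array 1 or mutant array 2, 0 members did, where 37.4% and 39.2% of all probe sets did. Since the members were chosen with results of these arrays known, these counts describe the genes and do not test them.

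**Figure D1:**
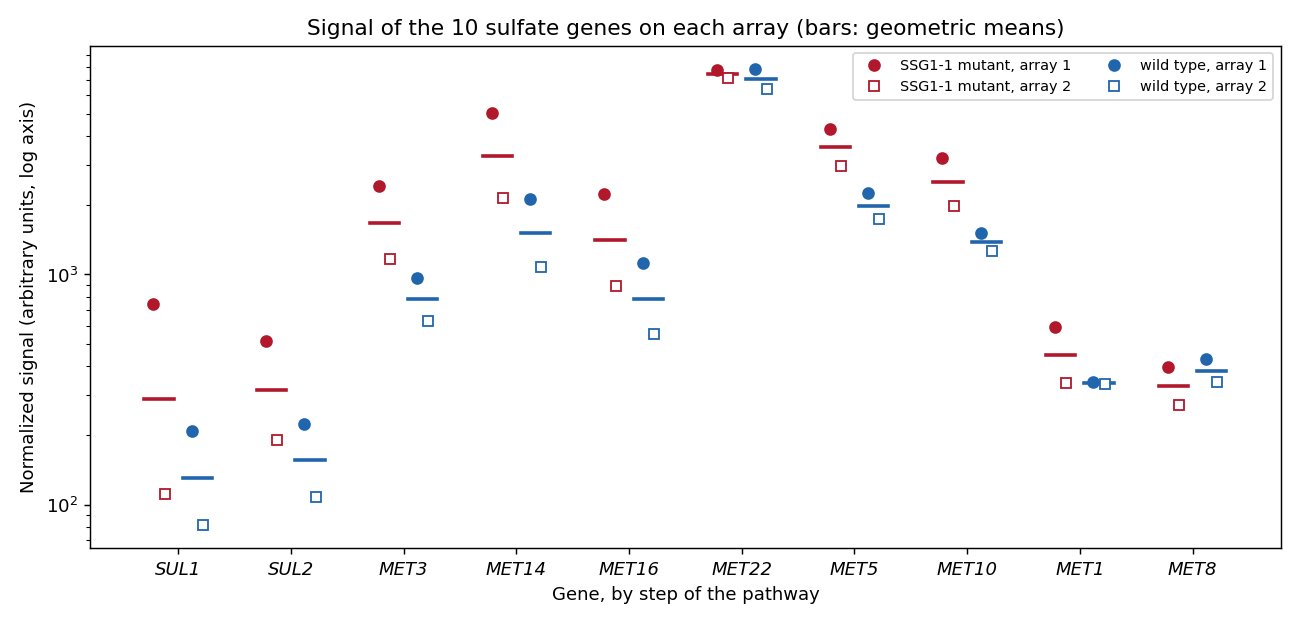
Normalized signal (log axis, arbitrary units) of each sulfate gene on each array, with the SSG1-1 mutant in red left of the wild type in blue, filled circles for array 1, open squares for array 2 and bars for geometric means. For every gene the array 1 point stands above the array 2 point of the same strain (MET22 in the mutant and MET1 in the wild type lose this under other scalings). Mutant array 1 is the highest point for 8 of the 10 genes and for 25.2% of all probe sets.

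SUL1 and SUL2 encode the high-affinity sulfate permeases of the plasma membrane. SUL1 had signals of 741 and 111 on mutant arrays 1 and 2, against 209 and 81.1 on wild-type arrays 1 and 2. Its highest and lowest arrays were 9.14-fold apart, the widest range among the 10 genes, and the strains overlapped because mutant array 2 lay below wild-type array 1. The strain difference of SUL1 was log2 1.14 ± 0.98 (limma SE, n = 2 per strain), which came to 3.55-fold within number 1 and 1.37-fold within number 2. Without mutant array 1 the difference was -0.23, in a fit that sets mutant array 2 against wild-type arrays of both numbers. SUL2 had signals of 512 and 192 in the mutant and 224 and 108 in the wild type, and its strains also overlapped. Its difference was log2 1.01 ± 0.58 (SE, n = 2 per strain), at 2.28-fold within number 1 and 1.78-fold within number 2.

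MET3 encodes ATP sulfurylase, which joins sulfate to AMP to give adenosine phosphosulfate, and MET14 encodes the kinase that phosphorylates this compound to PAPS (phosphoadenosine phosphosulfate). MET3 had signals of 2415 and 1165 in the mutant and 969 and 627 in the wild type. The strains did not overlap, though mutant array 2 was much nearer to wild-type array 1 than to mutant array 1. The difference was log2 1.11 ± 0.41 (SE, n = 2 per strain), at 2.49-fold and 1.86-fold within numbers 1 and 2. MET14 had signals of 5014 and 2149 in the mutant and 2119 and 1080 in the wild type. Mutant array 2 and wild-type array 1 were nearly equal, and their order turned with the scaling, since the strains overlapped in the values as deposited and with median centring. The difference of MET14 was log2 1.12 ± 0.51 (SE, n = 2 per strain), with 2.37-fold within number 1 and 1.99-fold within number 2.

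MET16 encodes PAPS reductase, which uses thioredoxin to release sulfite from PAPS. Its signals were 2238 and 892 in the mutant and 1121 and 549 in the wild type, with mutant array 2 below wild-type array 1. The strain difference was log2 0.85 ± 0.55 (SE, n = 2 per strain), 2.00-fold within number 1 and 1.63-fold within number 2, and it ran between 0.19 without mutant array 1 and 1.51 without mutant array 2. MET22 encodes the nucleotidase that clears phosphoadenosine phosphate, the by-product of the same reaction. Its signals of 7713 and 7159 in the mutant and 7839 and 6431 in the wild type overlapped and spanned 1.22-fold in all, the narrowest range of the 10. The log2 difference was 0.07 ± 0.12 (SE, n = 2 per strain; 95% interval -0.25 to 0.38), and its sign changed with the scaling, to -0.056 in the values as deposited.

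MET5 and MET10 encode the beta and alpha subunits of sulfite reductase, which makes sulfide from sulfite. MET5 had signals of 4304 and 2955 in the mutant and 2260 and 1737 in the wild type. MET10 had 3216 and 1981 in the mutant and 1515 and 1260 in the wild type. For both subunits the lower mutant array was clear of the higher wild-type array. Their strain differences nearly matched, at log2 0.85 ± 0.24 for MET5 and 0.87 ± 0.26 for MET10 (SE, n = 2 per strain). Within number 1 the folds were 1.90 for MET5 and 2.12 for MET10. Within number 2 they were 1.70 for MET5 and 1.57 for MET10. With MET3, these were the members whose 95% intervals (limma, before any adjustment) lay above 0, at 0.24 to 1.45 for MET5, 0.19 to 1.55 for MET10 and 0.06 to 2.15 for MET3. The interval of MET14, whose strain difference was log2 1.12, ran from -0.19 to 2.42. All these intervals also hold the difference between the numbers.

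MET1 and MET8 encode the enzymes that make siroheme, the iron-containing cofactor of sulfite reductase: MET1 methylates uroporphyrinogen, and MET8 oxidizes the product and inserts iron. MET1 had signals of 589 and 338 in the mutant and 342 and 333 in the wild type. Mutant array 1 stood alone, and the other 3 arrays were close together. Its log2 difference was 0.40 ± 0.29 (SE, n = 2 per strain), made of 1.73-fold within number 1 and 1.01-fold within number 2. Without mutant array 1 it was 0.0026, and without mutant array 2 it was 0.80. MET8 had signals of 394 and 271 in the mutant and 429 and 341 in the wild type. It was the only member with a negative strain difference, log2 -0.23 ± 0.25 (SE, n = 2 per strain; 95% interval -0.86 to 0.41), at -0.12 within number 1 and -0.33 within number 2, with overlapping strains.

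**Figure D2:**
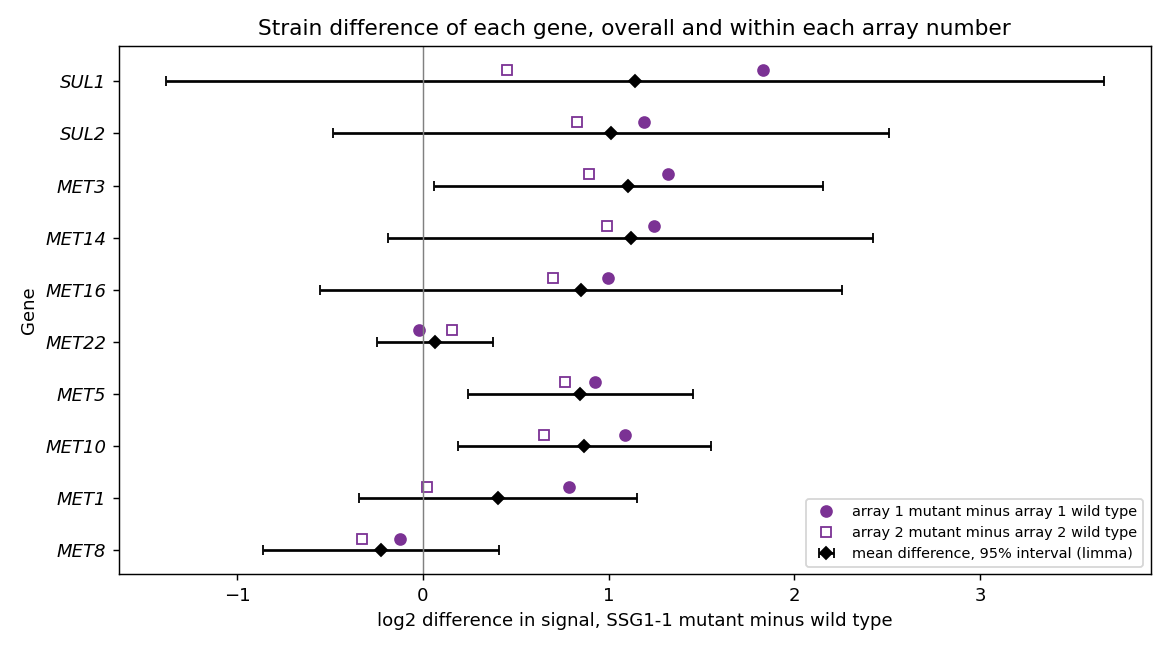
Log2 difference in signal, mutant minus wild type, for each sulfate gene, with black diamonds for the mean and its 95% interval from limma, filled circles for the difference between the arrays numbered 1 and open squares for that between the arrays numbered 2. The intervals of MET3, MET5 and MET10 lie above 0, and the circle lies right of the square for every gene but MET22, an order that in the deposited values holds for SUL1 and MET1 alone.

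Ordered by strain difference, the genes ran SUL1, MET14, MET3, SUL2, MET10, MET16, MET5, MET1, MET22 and MET8. The first 7 stood within 0.29 log2 units of each other. No gap between neighbours in this order was clearly beyond its combined standard error. The gap between MET5 and MET1 was 0.44, or 1.19 times that error, and the others were smaller in those terms. This error treats the genes of a gap as independent, though they were read on the same arrays. Genes further apart in the order were not compared in this way. Among all tested probe sets, SUL1, MET14, MET3 and SUL2 stood at percentiles 99.6, 99.6, 99.6 and 99.5 of the strain difference. MET10, MET16 and MET5 stood at percentiles 99.3, 99.2 and 99.2, MET1 at 95.5, MET22 at 69.6 and MET8 at 12.7. SUL2, MET3, MET14, MET16, MET5 and MET10 were at least 1.5-fold higher in the mutant within both numbers, a limit chosen after their values were seen, which 1.08% of all probe sets passed.

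The second comparison set the arrays numbered 1 against those numbered 2, over both strains. All 10 sulfate genes were higher on array 1 than on array 2 within both strains, as were 36.3% of all probe sets. In the deposited values 9 were, without MET22, and with median centring 9 were, without MET1. Their median log2 difference, number 1 minus number 2, was 0.66, against -0.01 over all tested probe sets, and 0.93 within the mutant and 0.50 within the wild type. No member passed limma's test (adjusted p between 0.0949 and 0.462), in which 2.98% of all probe sets passed in either direction, 1.54% higher and 1.43% lower on the arrays numbered 1. At an unadjusted p under 0.05 that test gave 5 members as higher on arrays numbered 1, SUL1, SUL2, MET16, MET22 and MET8, and 0 as lower, where 12.1% of all probe sets were higher and 13.8% lower. Both arrays numbered 1 lay above both numbered 2 for those 5 and MET1, 6 members in all, and for 26.4% of all probe sets. In the deposited values those apart were SUL1, SUL2, MET16 and MET14, against 13.8% of all probe sets. With median centring they were SUL1, SUL2, MET16, MET14, MET22 and MET8, against 28.1%. Without 1 array the median was 0.34 (without mutant array 1), 0.50 (without wild-type array 2), 1.07 (without mutant array 2) or 1.26 (without wild-type array 1), and 6, 6, 10 and 10 members were apart, where 38%, 36.4%, 36.9% and 37.2% of all probe sets were. The arrays numbered 1 lay below both numbered 2 for 0 members and for 29.8% of all probe sets. The limma fit with strain and number together called 10 members higher on arrays numbered 1 and 2003 probe sets in all, again with variance from the trend alone.

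The permeases and PAPS reductase had the largest differences between the numbers, though MET14 lay within the standard errors of SUL2 and MET16. SUL1 was 6.69-fold higher on array 1 than on array 2 in the mutant and 2.57-fold in the wild type (log2 2.05 ± 0.56 over both strains, SE, n = 2 per number). SUL2 was 2.68-fold higher on array 1 in the mutant and 2.08-fold in the wild type (log2 1.24 ± 0.44). MET16 followed with 2.51-fold in the mutant and 2.04-fold in the wild type (log2 1.18 ± 0.36). For these 3 genes the number difference was larger than the strain difference. MET14 differed about equally in both comparisons, with 2.33-fold between numbers in the mutant and 1.96-fold in the wild type (log2 1.10 ± 0.46). MET3 had a smaller number difference, at log2 0.84 ± 0.47, and so did the reductase subunits MET5 at 0.46 ± 0.36 and MET10 at 0.48 ± 0.38. MET8 stood at 0.44 ± 0.16 between the numbers, MET1 at 0.42 ± 0.26 and MET22 at 0.20 ± 0.07.

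The variation of each gene over the 4 arrays was divided into a part between strains, a part between numbers and a remainder. For MET5 and MET10 the strain part was the largest, at 76.6% and 73.0% of the sum of squares, and for MET3 it was 62.0%. MET14 was split almost evenly, with 50.6% between strains and 48.8% between numbers. The number part led for SUL2 at 59.3%, MET16 at 65.1%, SUL1 at 70.4%, MET8 at 75.4% and MET22 at 75.9%. MET1 had 33.6% between strains, 36.1% between numbers and 30.3% left over, the largest remainder of the 10. These shares are those of the quantile-normalized values. In the deposited values the strain difference of MET8 (log2 -0.37) was larger in size than its number difference (0.30). There the number difference led for MET14 (1.11 against 0.98) and the strain difference for MET1 (0.28 against 0.27). After quantile normalization the strain difference was larger within number 1 than within number 2 in 9 of 10 genes and in 46.9% of all probe sets, by 1.38 log2 units for SUL1, 0.77 for MET1 and between 0.16 and 0.43 for the other 7 of the 9, where for MET8 it was less negative. In the deposited values it was larger within number 1 for 2 genes, SUL1 and MET1, against 3.11% of all probe sets, and with median centring for 10 genes, against 55.8%. The sign of this inequality therefore turned with the scaling in 8 of the 10 genes, all but SUL1 and MET1, and with 4 arrays no spread is left to test it against.

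The order of the arrays was shared by several members. MET3, MET14, MET5 and MET10 ran mutant 1, mutant 2, wild type 1, wild type 2 from high to low, an order found for 5.36% of all probe sets. SUL1, SUL2, MET16 and MET1 ran mutant 1, wild type 1, mutant 2, wild type 2, which 9.21% of all probe sets did. In the deposited values MET14 was in the second order and MET1 in the first. MET22 and MET8 were the members for which wild-type array 1 was highest (with median centring MET8 alone was). Wild-type array 2 was the lowest for 9 members and 24.7% of all probe sets, MET8 being the exception (with median centring MET1 was another).

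**Figure D3:**
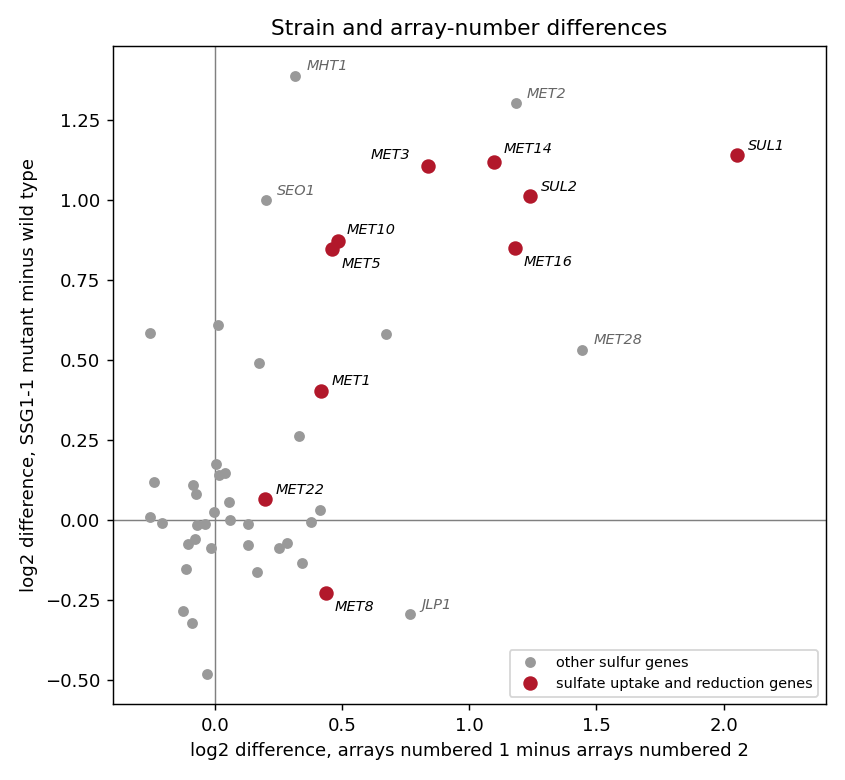
Log2 difference between strains (vertical axis, mutant minus wild type) against that between array numbers (horizontal axis, number 1 minus number 2), with 1 point per gene, red for the 10 sulfate genes and grey for 38 other genes of sulfur metabolism. All red points lie right of 0, and all but MET8 lie above 0, whereas most grey points lie near the origin.

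Of 39 other genes of sulfur metabolism on the list, 38 were tested, and SOA1 had no named probe set. Their median log2 difference between strains was 0.0056, against 0.86 for the sulfate genes, and 0.03 between numbers. No gene of that list passed limma's test between strains; at an unadjusted p under 0.05 it gave 5 as higher and 1 as lower, where 2.72% and 1.8% of all probe sets were. The strains did not overlap for 16 of the 38, with the mutant above for 12 and below for 4, against 14% and 18% of all probe sets. Between numbers 1 of the 38 passed, a share near the 2.98% of all probe sets: CYS4, which encodes cystathionine beta-synthase, was lower on the arrays numbered 1 (log2 -0.25 ± 0.04 SE, limma adjusted p = 0.0409, n = 2 per number).

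Sulfide made by sulfite reductase is taken up by the enzymes of homocysteine synthesis. MET2, which encodes the homoserine acetyltransferase that makes the carbon acceptor, had signals of 1290 and 413 in the mutant and 380 and 231 in the wild type (log2 1.30 ± 0.58 SE). MET17, the enzyme that joins sulfide to that acceptor, had signals of 14406 and 13031 in the mutant and 10465 and 9081 in the wild type (log2 0.49 ± 0.10 SE, limma adjusted p = 0.782, n = 2 per strain). It was picked out for its place next to sulfide. For MET2 and MET17 the strains did not overlap. The aspartate-to-homoserine genes HOM2, HOM3 and HOM6, also picked for their place in the route, stood at log2 0.0022, -0.02 and 0.03.

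The transsulfuration genes had a median of log2 0.09 between strains over 4 genes, and the genes of methionine and S-adenosylmethionine synthesis 0.08 over 6. The thioredoxin genes that serve PAPS reductase had a median of -0.01 over 3 genes, and the sulfite export genes -0.09 over 2. Among genes for the use of other sulfur sources, with a median of 0.01 over 12, MHT1, the homocysteine methyltransferase gene, and SEO1, a putative permease gene, had the largest strain differences. MHT1 had signals of 1242 and 873 in the mutant and 416 and 381 in the wild type. SEO1 had 295 and 228 in the mutant and 132 and 128 in the wild type (log2 1.00 ± 0.20 SE). Unlike in SUL1 and SUL2, the strains were well apart in MHT1 and SEO1, and 93.3% and 93.6% of the sum of squares lay between strains. JLP1, a sulfonate dioxygenase gene, was among the 3 largest between numbers, at log2 0.77 ± 0.21 (SE), and stood at -0.29 ± 0.39 between strains.

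The regulators differed in sign. The median of MET4, MET28, MET31, MET32, CBF1 and MET30 was log2 -0.18 between strains, with the mutant clear above the wild type for 1 gene and clear below it for 2, against 14% and 18% of all probe sets. MET4 itself was at -0.07 ± 0.18 (SE), with signals of 494 and 450 in the mutant and 440 and 559 in the wild type. MET28, a cofactor of Met4, had the array order of SUL1, SUL2, MET16 and MET1, which 9.21% of all probe sets had. Its signals were 359 and 93.5 in the mutant and 176 and 91.2 in the wild type. It had the largest number difference of the 38 genes, log2 1.44 ± 0.33 (SE, limma adjusted p = 0.0699, n = 2 per number). The DNA-binding paralogs MET31 and MET32, picked out after their values were seen, had opposite signs between strains, at -0.48 ± 0.14 and 0.61 ± 0.22 (SE), and MET32 was dim, with signals of 98.9 and 96.1 in the mutant and 63.4 and 64.3 in the wild type.

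The genes most like the mean pattern of the 10 sulfate genes were sought over all tested probe sets, by the root-mean-square distance between centred log2 signals on the 4 arrays. The 5 closest were YPT53, a Rab GTPase gene, at 0.0679 log2 units, OYE3, an NADPH oxidoreductase gene, at 0.0880, PUT4, the proline permease gene, at 0.0926, YLR157W-E at 0.0977 and PRX1, the mitochondrial peroxiredoxin gene, at 0.107. None of the 5 is on the sulfur lists. The median distance of all tested non-members was 0.584, and the sulfate genes themselves lay between 0.184 (MET16) and 0.686 (SUL1) from their own mean. YPT53 was dim, with signals of 35.9 and 17.2 in the mutant and 18.3 and 13.3 in the wild type. With 4 arrays many genes can share such a pattern, and nothing follows from the likeness about function.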

How the data were processed

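The authors deposited 1 linear signal intensity per probe set and array. The submitters' processing notes name GCOS with no version, and MAS5 stands in the name of a second deposited table. No source used here gives the background correction, scaling target or genome build, so no coordinates are printed. The second table holds intensity and detection calls; 4 of its columns, whose headers match no label, were left unused, and its 2 strain-named intensity columns equal array 2 of each strain in the series table exactly. A planned filter on 2 of 4 calls was therefore replaced by present in at least 1 of 2 call columns.

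The platform annotation gave the gene names, with 12 symbols updated through the R64 gene table. It named 1 S. cerevisiae gene each for 5498 of 10928 probe sets, and 5376, for 5330 genes, passed the filter. Signals under 0.1 were set to 0.1, taken to log2 and quantile normalized, because the 2% trimmed means differed by over 5%. Strains, and array numbers, were compared with limma 3.58.1 in R 4.3.3 (lmFit, eBayes with a mean-variance trend), with Benjamini-Hochberg adjustment over all probe sets and a threshold of 0.05. The fit was tested on simulated data with independent noise on each array. That test does not cover deviations shared by arrays of the same number, which these arrays had. Errors are moderated standard errors. Python 3.11.15 with matplotlib 3.10.9 drew the figures.

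The members and lists were chosen with earlier results of these data known. All members are named; of the other sulfur genes, those past the threshold, the 3 largest absolute log2 differences per comparison, and genes said to be picked out. Arrays that share a number correlated at 0.634 in their deviations, but with 2 pairs and no label saying what a number marks, the main fit has no block.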

Additional observations from a re-analysis of the deposited data

Results flagged for a closer look

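MET22 was the member whose strain difference had opposite signs in the 2 pairs of same-numbered arrays, at log2 -0.02 within number 1 and 0.15 within number 2, a difference of -0.18 between the numbers. That difference was not tested, and with median centring both values were positive, at 0.11 and 0.07.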

How the results depend on the processing

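The 10 alternatives gave 200 recomputed member differences. Dropping the trend or the detection filter, a floor of 10 and the replicate block left each difference unchanged. Only the other alternatives could turn a direction. Of the 200 differences, 194 kept theirs. MET22 between strains was -0.056 in the values as deposited. The other 5 came from leaving out 1 array. Between strains, these fits ranged from -0.23 (without mutant array 1) to 2.51 for SUL1, from -0.50 to 0.045 (without mutant array 2) for MET8 and from -0.077 (without wild-type array 2) to 0.21 for MET22. Between numbers they ranged from -0.061 to 1.03 for MET10 and from -0.0034 to 0.93 for MET5, both lowest without mutant array 1. The other members kept their sign between strains in these fits, at 0.30 to 1.72 for SUL2, 0.58 to 1.63 for MET3, 0.51 to 1.73 for MET14, 0.58 to 1.12 for MET5 and 0.52 to 1.22 for MET10, each lowest without mutant array 1 and highest without mutant array 2. Leaving out 1 array also unbalances the numbers between the strains. The member median between strains was 0.24 to 1.37 over those 4 fits and 0.71 to 0.86 under the others. Between numbers it was 0.34 to 1.26, and 0.63 to 0.69 under the others. In the deposited values the median of all probe sets was -0.15 between strains.

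With the replicate block, limma called 8 members higher between strains (adjusted p between 4.21e-36 for MET14 and 0.0180 for MET1), all but MET22 and MET8, and 10 higher on arrays numbered 1. That fit called 828 probe sets between strains and 2003 between numbers, and took each gene's variance from the trend alone, so the gene's own spread did not enter. Probe sets called between strains were 6 in the deposited values, 4 with median centring, 0 without a trend and 2 to 4 without 1 array, against 1. Between numbers they were 48 in the deposited values, 0 without a trend and 12 to 155 without 1 array, against 160. SUL1 passed between numbers in the deposited values, a fit that also took the variance from the trend alone, and SUL1, SUL2 and MET16 did so without wild-type array 1. The sign of the difference between the numbers' strain differences turned in the deposited values for all members but SUL1, MET1 and MET22, and with median centring for MET22. The counts over members and the scalings of within-number values were added after the data were seen. Averaging probe sets of a gene was not run, since each member has 1. The cause of these changes was not tested.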

Other observations

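Of the 20 protein-coding genes that flank the 10 sulfate genes in the R64 gene order, 18 were tested, and their median log2 difference between strains was 0.02, within -0.24 (DID4, beside MET14) and 0.21 (MRP2, beside MET16). The strains did not overlap for 5 of the 18, with the mutant above for 4 and below for 1, where 14% and 18% of all probe sets were. Between numbers the 18 had a median of 0.03, and NUT2, beside MET16 and picked out after its value was seen, stood at 0.91, against 1.18 for MET16.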
